A study of Mus musculus with 3 samples.

Results

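The 10 genes described here encode the transcription factors at the core of the cardiac progenitor programme, namely Nkx2-5, Isl1, Hand1, Hand2, Mef2a, Mef2c, Mef2d, Myocd, Irx4 and Mesp1. They were chosen by name, and each was followed through every array probe whose RefSeq accession belongs to it, which gave 13 of the 39429 distinct probes and all 10 genes among the 14705 tested. RNA came from Hopx-/- embryoid bodies grown with the Wnt inhibitor XAV939 at 12.5 µM and from Hopx+/- embryoid bodies whose labels name no inhibitor, all harvested on day 8 of cardiac differentiation, and each of 3 Agilent arrays with 2 colours set one RNA directly against the other. An embryoid body is a clump of stem cells left to differentiate, and the lines were made from blastocysts of each genotype. How many lines stand behind a genotype is not stated in the labels, and the stem cells had been kept on feeder fibroblasts. Both cultures spent 2 days in hanging drops and 2 in suspension before plating in a medium with VEGF (5 ng/ml), bFGF (10 ng/ml), FGF10 (12.5 ng/ml) and ascorbic acid (1 mM). The inhibitor was paired with the null genotype, and the comparison RNA was heterozygous rather than wild type, so effects of genotype and inhibitor cannot be told apart. XAV939 inhibits tankyrase, which stabilises axin and lowers β-catenin, and Hopx codes for a homeodomain protein that acts through other factors rather than by contact with DNA.

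In the mouse embryo Mesp1 switches on briefly in the mesoderm that leaves the primitive streak and founds the heart. Isl1 then marks progenitors of the second heart field, and Nkx2-5, the Hand factors and the Mef2 factors drive the muscle programme of the heart tube. Myocd encodes myocardin, a coactivator that binds serum response factor, and Irx4 is a homeobox gene of ventricular muscle.

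Every direction below is a likely one, not a settled one. By the labels Cy5 carries null RNA throughout, yet replicate 3 ran opposite to the others: its dye ratios had r = -0.878 with replicate 1 and r = -0.908 with replicate 2, whereas those 2 had r = 0.965 across probes. The sign of replicate 3 was reversed to match the authors' value table, which carries this reversal. Hopx, the targeted gene, then lay at -2.65, -2.75 and -2.73 (log2 ratio of null plus inhibitor over heterozygous) on replicates 1, 2 and 3, and its second probe at -2.23, -2.12 and -2.42. Where these probes lie relative to the deleted stretch was not analysed here. Were the overall direction opposite, 6 of the 10 factors would be higher and 1 lower. The share of array spots, controls left out, well above background was 56.6% to 66.6% for the null RNA and 61.6% to 68% for the heterozygous RNA.

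Of the 10 factors, 6 were lower in null cultures with inhibitor (Isl1, Myocd, Irx4, Hand1, Nkx2-5 and Hand2), Mesp1 was higher against a heterozygous signal near background, and the 3 Mef2 genes did not pass the test. The test was limma's moderated test of the mean log2 ratio against 0, adjusted over all 14705 genes by Benjamini and Hochberg with a threshold of 0.05. Of all genes tested 64.5% were called, 33% lower and 31.5% higher, and the shares of the 10 factors, 6 lower and 1 higher, are to be read against these. The median log2 ratio of the 10 was -0.88, against -0.01 for all genes tested. All values below are mean ± SD with n = 3 arrays unless stated, and the p-values measure the spread between these arrays, which may be technical. In bulk RNA, fewer cells of a type and less RNA per cell cannot be told apart.

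Windows upstream of 3 of these genes are shown first, because Isl1 had one of the deepest falls, Nkx2-5 is the defining heart factor and Mesp1 alone rose. Each is the 250 bases before the transcription start from RefSeq's annotation of GRCm38.p6, read 5′ to 3′ on the gene's strand; the windows lie at chr13:116309689-116309938 (minus strand), chr17:26841566-26841815 (minus strand) and chr7:79793591-79793840 (minus strand). Capitals mark matches on either strand to the motifs named below.
Isl1: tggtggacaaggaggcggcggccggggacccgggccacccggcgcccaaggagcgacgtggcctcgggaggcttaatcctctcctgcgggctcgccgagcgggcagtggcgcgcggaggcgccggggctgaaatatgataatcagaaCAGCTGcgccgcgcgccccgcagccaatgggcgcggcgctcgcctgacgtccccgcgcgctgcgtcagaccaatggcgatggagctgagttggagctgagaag
Nkx2-5: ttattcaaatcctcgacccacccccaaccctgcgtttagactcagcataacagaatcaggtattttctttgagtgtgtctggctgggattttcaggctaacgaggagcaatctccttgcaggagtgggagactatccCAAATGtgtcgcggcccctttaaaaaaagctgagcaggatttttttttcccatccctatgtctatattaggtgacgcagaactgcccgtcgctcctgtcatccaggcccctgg
Mesp1: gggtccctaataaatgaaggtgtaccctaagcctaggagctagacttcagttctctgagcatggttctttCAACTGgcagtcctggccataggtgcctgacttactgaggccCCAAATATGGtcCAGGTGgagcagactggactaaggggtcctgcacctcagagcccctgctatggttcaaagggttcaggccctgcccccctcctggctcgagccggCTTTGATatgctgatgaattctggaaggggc
A set of 6 motifs were searched in these windows and in those of Hand2, Mef2a, Mef2c, Mef2d and Irx4, which together gave 10 windows for 8 of the 10 genes. The E-box CANNTG, the site of bHLH factors such as Hand1, Hand2 and Mesp1, occurred 1 time in the Isl1 window (CAGCTG), 1 time in the Nkx2-5 window (CAAATG) and 2 times in the Mesp1 window (CAACTG and CAGGTG). It is common, being present in 66.2% of 32851 windows of the same length. Among the 10 windows, that of Mesp1 alone held a TCF/LEF site (ATCAAAG, found as CTTTGAT from 31 to 25 bases before the start) and a CArG box, the site of serum response factor (found as CCAAATATGG); 3.21% and 1.47% of all windows held one. The Hand2 window alone held the GATA site in the form AGATAA (in 9.99% of windows). Other forms of that site were not searched, and the Isl1 window holds TGATAA, which is not marked. None of the 10 held the NKX2-5 site TNAAGTG (10.1%) or a MEF2 site (2.92%). These matches describe letters in the windows and say nothing of binding.

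**Figure D1:**
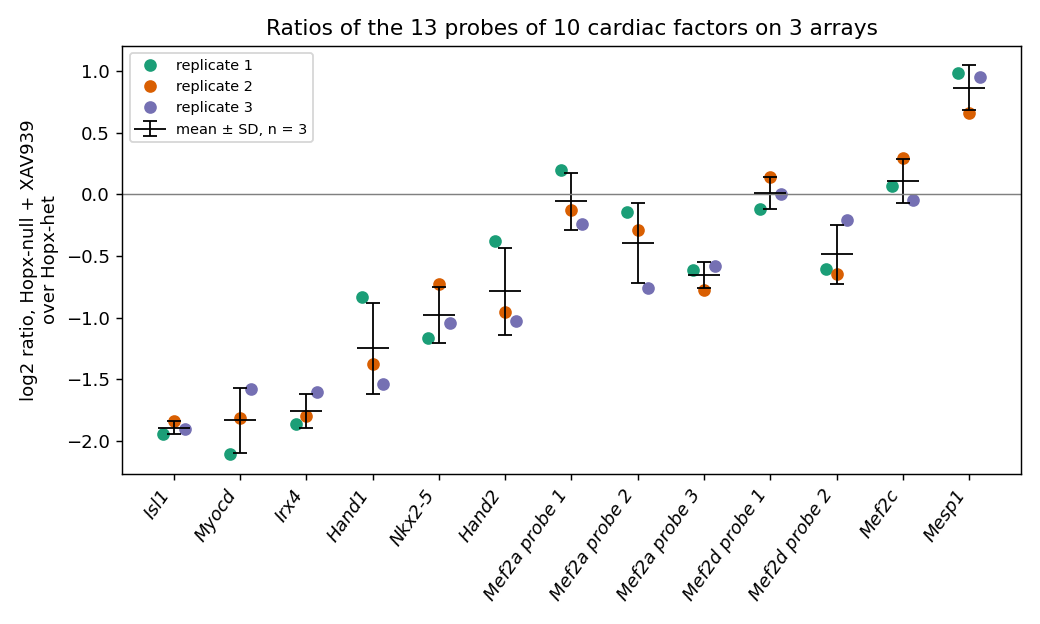
Log2 ratio of Hopx-null plus XAV939 over Hopx-het RNA (vertical axis) for the 13 probes of the 10 factors, with 1 point per array and the mean ± SD (n = 3) in black. Isl1, Myocd and Irx4 sit lowest, near -1.8, the probes of Mef2a and of Mef2d disagree with each other, and the Mesp1 points are all above 0.

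The homeobox factors fell, Isl1 and Irx4 by more than 3-fold and Nkx2-5 by about 2-fold. Isl1, a LIM homeobox gene of second heart field progenitors, had normalised log2 signals of 7.52, 7.56 and 7.53 in null cultures with inhibitor, against 9.46, 9.40 and 9.43 in heterozygous cultures. The groups were well apart on every array. Its mean log2 ratio was -1.89 ± 0.05, a 3.71-fold fall (adjusted p = 8.97e-07), and its ratio ranked 344 from the lowest of the 14705 genes. The Isl1 probe is printed 10 times on each array, which gives the spread within an array. Its spots ranged from -2.02 to -1.86 on replicate 1, from -2.01 to -1.72 on replicate 2 and from -2.14 to -1.59 on replicate 3. The SD between spots of an array was 0.055, 0.092 and 0.153.

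**Figure D2:**
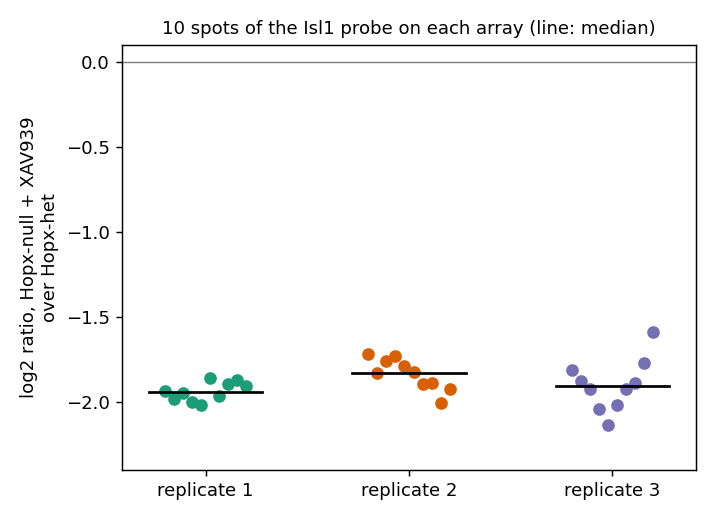
Log2 ratio of null plus XAV939 over het for each of the 10 spots of the Isl1 probe on each array; the line is the array's median. The medians were -1.94, -1.83 and -1.91, and the spots of replicate 3 were the most spread.

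Irx4, a homeobox gene of ventricular muscle, had log2 signals of 7.39, 7.25 and 7.43 in null cultures with inhibitor, against 9.26, 9.05 and 9.03 in heterozygous cultures. Its ratio of -1.75 ± 0.14 was a 3.37-fold fall (adjusted p = 1.81e-06). Nkx2-5, among the first markers of the cardiac lineage, had signals of 9.67, 9.56 and 9.83 in null cultures with inhibitor, against 10.83, 10.29 and 10.87 in heterozygous cultures. The groups did not overlap, and the smallest gap was on replicate 2 (-0.73, against -1.17 and -1.04 on replicates 1 and 3). The mean of -0.98 ± 0.22 was a 1.97-fold fall (adjusted p = 9.01e-05). Isl1 lay below Nkx2-5 on all 3 arrays, by 0.91 ± 0.17 on average, and Irx4 by 0.78 ± 0.27. With 3 arrays the exact sign-flip test of such a difference cannot go below 0.25 (two-sided), the value each of these gave (0.286 after adjustment over 8 pairs).

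Isl1 and Irx4 carried signals near the lower end of the scale in null cultures, where the background correction matters most. Feature Extraction's own log ratio, which adds no offset, gave larger falls, at -2.35 for Isl1 and -2.26 for Irx4, and -0.99 for Nkx2-5. With local backgrounds marked as outliers kept as deposited, the falls shrank to 2.32-fold for Isl1 (-1.22, adjusted p = 0.0261) and 2.05-fold for Irx4 (-1.04, adjusted p = 0.0255), which still passed limma's test. In the authors' value table the falls were 2.81-fold for Isl1 and 2.39-fold for Irx4.

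Myocd, the coactivator, fell by more than 3-fold too in the main setting. The fall was 2.48-fold with marked backgrounds kept and 2.99-fold in the authors' value table. Its log2 signals were 8.20, 8.35 and 8.48 in null cultures with inhibitor, against 10.31, 10.17 and 10.06 in heterozygous cultures. The ratio was -1.83 ± 0.26, a 3.56-fold fall (adjusted p = 3.25e-06), deepest on replicate 1 (-2.11) and shallowest on replicate 3 (-1.58). Isl1, Myocd and Irx4 could not be ranked: neighbours in that order differed by 0.06 ± 0.25 and 0.08 ± 0.14, with the order kept on 2 of 3 arrays each time.

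**Figure D3:**
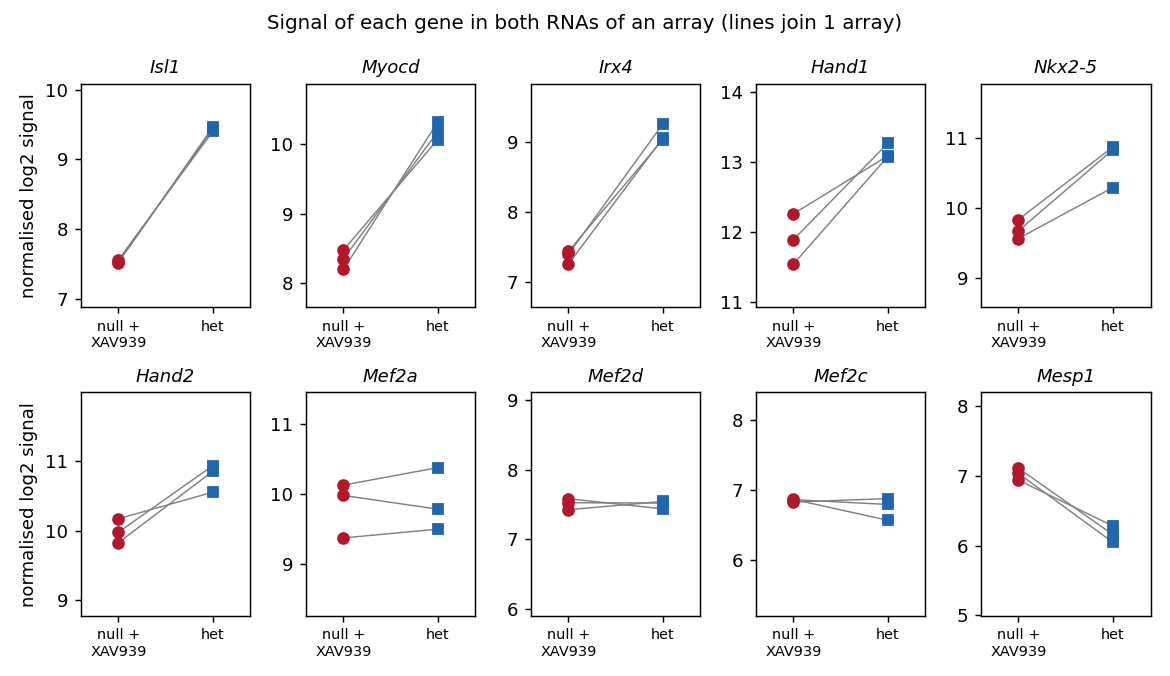
Normalised log2 signal (vertical axis) of each factor in null plus XAV939 RNA (red circles, left) and het RNA (blue squares, right), with a line joining both RNAs of 1 array; every panel spans the same range of log2 units around its own mean. Each panel shows only the gene's brightest tested probe. The 6 factors that fell show 3 rising lines towards the heterozygous RNA, Mesp1 shows 3 falling ones, and the lines of the Mef2 genes are near flat. Other probes of Mef2a and Mef2d, called lower, are not drawn.

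The bHLH factors split. Hand1, a gene of the early left ventricle and of extraembryonic mesoderm, had log2 signals of 12.26, 11.89 and 11.54 in null cultures with inhibitor, against 13.09, 13.27 and 13.08 in heterozygous cultures. Its ratio was -1.25 ± 0.37, a 2.37-fold fall (adjusted p = 7.11e-05). Hand2, its relative of the right ventricle and limb, had signals of 10.17, 9.98 and 9.83 in null cultures with inhibitor, against 10.55, 10.93 and 10.85 in heterozygous cultures. Its ratio was -0.79 ± 0.35, a 1.72-fold fall (adjusted p = 0.000974).

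Both Hand genes moved together across arrays. Replicate 1, alone on its slide, gave the smallest falls (-0.83 for Hand1 and -0.38 for Hand2), while replicates 2 and 3, on a second slide, gave -1.38 and -1.54 for Hand1 and -0.95 and -1.02 for Hand2. The difference between the genes was steadier than either ratio: Hand1 lay below Hand2 by 0.45, 0.43 and 0.51 (0.46 ± 0.04; exact sign-flip p = 0.25, the smallest possible, or 0.286 adjusted over 8 pairs). With slide as a term the falls were -1.14 for Hand1 and -0.68 for Hand2. Hand2 no longer passed limma's test with median centring in place of loess (-0.61, adjusted p = 0.109) or with marked backgrounds kept (-0.64, adjusted p = 0.0743).

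Mesp1 alone rose among the 10. Its log2 signals were 7.04, 6.94 and 7.11 in null cultures with inhibitor, against 6.05, 6.28 and 6.16 in heterozygous cultures. The mean ratio was 0.86 ± 0.18, or 1.82-fold higher (adjusted p = 0.000138), a size that depended on the background correction. The probe was well above background on 3 of 3 arrays in null cultures with inhibitor, against 1 of 3 in heterozygous cultures, so it entered the test through its signal in null cultures, and neither the fold nor the p-value measures a detected heterozygous level. When detection was required in both channels it was not tested. Feature Extraction's log ratio put it at 3.16, 2.19 and 3.78, a mean of 3.04 ± 0.80 or 8.24-fold (adjusted p = 0.00134). With marked backgrounds kept it was 1.31-fold (0.39, adjusted p = 0.196) and no longer passed limma's test.

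The MADS box factors gave no gene-level call. Mef2c, required for the looping heart, had a single probe with log2 signals of 6.86, 6.87 and 6.83 in null cultures with inhibitor, against 6.79, 6.57 and 6.88 in heterozygous cultures. Its ratio of 0.11 ± 0.18 (95% interval -0.14 to 0.35, adjusted p = 0.418) did not pass limma's test. Feature Extraction's log ratio, which adds no offset, spread wider, at 0.15, 0.46 and -0.40 (0.07 ± 0.43). At so low a signal the interval depends on the background correction, so it cannot exclude a change as large as that of Hand2. The Mef2c signal was low in both RNAs, though well above background on all 3 arrays.

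Mef2a and Mef2d, which are expressed far beyond muscle, gave different answers by probe. The brightest Mef2a probe (A_55_P1985159) lay at 0.20, -0.13 and -0.24, a mean of -0.06 ± 0.23 (adjusted p = 0.685 over genes). A second probe of nearly the same brightness (A_52_P175157) lay at -0.14, -0.29 and -0.76, a mean of -0.40 ± 0.32, and a dim one (A_65_P08239), above background on 2 of 3 arrays in null cultures with inhibitor, at -0.61, -0.77 and -0.58, a mean of -0.65 ± 0.10. In the fit over all 24376 tested probes, of which 60.2% were called (31.4% lower and 28.7% higher), the last 2 were lower (limma adjusted p = 0.0286 and 0.000552). The dim one needed its signal in heterozygous cultures to enter the test. By Feature Extraction's log ratio the dim probe fell further, at -2.38, -1.74 and -1.31 (-1.81 ± 0.54, 3.52-fold against 1.57-fold), and the second lay at -0.38 ± 0.32. The mean over the 3 probes, which includes the dim one, was called lower (-0.37, limma adjusted p = 0.0108). The brightest probe exceeded the dim one on every array, by 0.81, 0.65 and 0.34.

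For Mef2d, the brighter probe (A_55_P1966958) had log2 signals of 7.43, 7.58 and 7.53 in null cultures with inhibitor, against 7.54, 7.44 and 7.52 in heterozygous cultures, and a ratio of 0.01 ± 0.13 (limma adjusted p = 0.94). Its other probe (A_51_P504672) was lower, at -0.61, -0.64 and -0.21 (-0.49 ± 0.24, limma adjusted p = 0.00652 over probes), and at -0.96 ± 0.30 (1.94-fold) by Feature Extraction's log ratio. The second lay below the first on every array, by 0.50 ± 0.29. All probes of Mef2a share 1 accession, as do both of Mef2d; which transcripts they tell apart was not analysed here.

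In order from lowest to highest the gene-level ratios ran Isl1, Myocd, Irx4, Hand1, Nkx2-5, Hand2, Mef2a, Mef2d, Mef2c and Mesp1. Adjacent genes kept their order on all 3 arrays at 3 places: Irx4 below Hand1 (by 0.51 ± 0.49), Hand2 below Mef2a (by 0.73 ± 0.13) and Mef2c below Mesp1 (by 0.76 ± 0.35). Elsewhere neighbours differed by less than their spread. The order uses each gene's brightest probe, and the dim Mef2a probe lay below Hand2 on replicate 1 (-0.61 against -0.38).

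**Figure D4:**
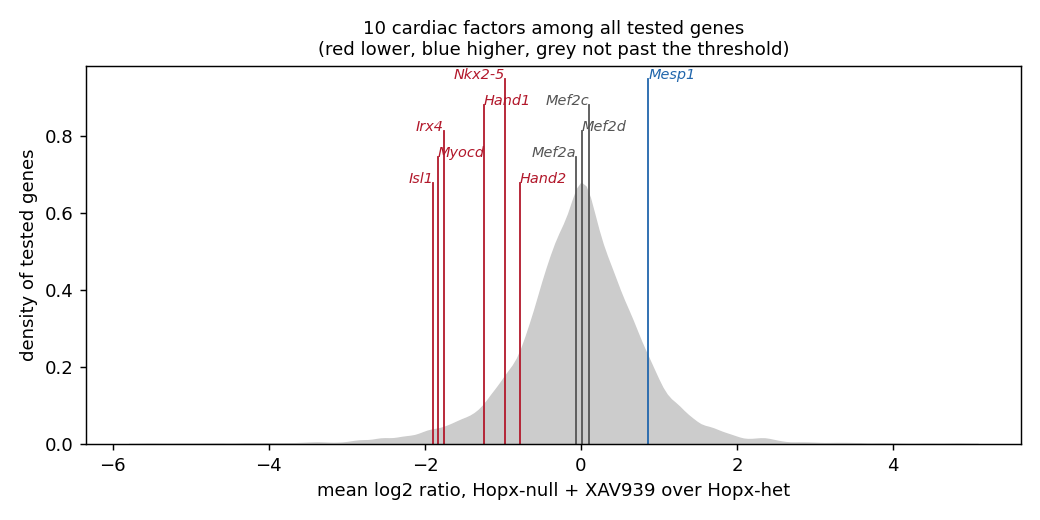
Density of the mean log2 ratio of all 14705 tested genes (grey), with a vertical line for each of the 10 factors, red where called lower, blue where called higher and grey where not called. Line heights only separate the names; Isl1, Myocd and Irx4 lie in the lower tail, with 2.33% to 2.84% of genes below them.

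Related genes were taken from 6 lists with 118 entries. Of 13 tested relatives of the factors, 5 were lower and 4 higher, with a median of -0.14, against -0.01 over all genes. These shares, 38.5% lower and 30.8% higher, are near those of all genes tested (33% and 31.5%). Irx2 (-1.35 ± 0.14), Nkx2-6 (-0.96 ± 0.21) and Isl2 (-0.63 ± 0.13) fell. Nkx2-6 and Isl2 were above background on 2 of 3 arrays in null cultures with inhibitor, against 3 of 3 in heterozygous cultures. Both needed their heterozygous signal to enter the test. Tcf15, a bHLH gene of paraxial mesoderm (0.90 ± 0.23), Nkx2-3 (0.85 ± 0.40) and the tendon gene Scx (0.62 ± 0.06) rose. With marked backgrounds kept, 0 of the 13 were lower and 1 higher, and 3 were lower with median centring, with detection required in both channels or in the authors' value table. Mesp2 and Msgn1 were not tested, since their probes were not well above background on every array.

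Among 27 partner and cofactor genes, 15 were lower (55.6%) and 4 higher (14.8%), with a median of -0.57. Apart from Hopx itself, Id2, an inhibitor of bHLH factors (-2.29 ± 0.19), and Gata6 (-1.93 ± 0.32) fell furthest. Ldb2, a LIM domain binding cofactor (0.91 ± 0.50), Tcf3, which encodes the bHLH partner E2A (0.79 ± 0.03), and the LIM homeobox gene Lhx2 (0.48 ± 0.51) rose. Srf, the partner of myocardin, lay at 0.22 ± 0.20 by its brightest probe and did not pass (limma adjusted p = 0.118). Of its 2 tested probes, 1 was called higher in the fit over probes. Of the 3 probes of Zfpm1, which encodes a GATA cofactor, 1 was called higher and 2 lower. Without replicate 3, 8 of the 27 were higher in place of 4, and with median centring 10 were lower and 2 higher.

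Around Mesp1, 12 mesoderm genes were tested, of which 6 were lower (50%) and 5 higher (41.7%), with a median of -0.31. Pdgfra, a receptor of cardiac mesoderm (-2.49 ± 0.40), the atrial light chain gene Myl7 (-2.06 ± 0.50) and Tbx6 (-0.97 ± 0.03) fell. For Tbx6 this is its brightest probe, and 1 of its 2 tested probes was called lower in the fit over probes. Foxc2 (1.57 ± 0.17), Eomes, a T-box activator of Mesp1 (1.01 ± 0.58), and the Notch ligand gene Dll3 (0.99 ± 0.24) rose. T, Mixl1 and Ripply2 were not tested because their signals were too low.

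Around Isl1, 10 of 18 tested second heart field genes were lower (55.6%) and 5 higher (27.8%), with a median of -0.43. The ligand gene Wnt11 (-2.24 ± 0.33) and the T-box gene Tbx1 (-2.01 ± 0.20) fell. Foxh1 (1.79 ± 0.28), Six2 (1.68 ± 0.31) and the retinoic acid synthesis gene Aldh1a2 (1.66 ± 0.56) rose. Without replicate 2, 3 of the 18 were higher in place of 5, and with median centring 6 were lower and 3 higher.

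Muscle genes downstream of the factors were mostly lower, at 24 of 28 tested (85.7%), with 2 higher (7.14%) and a median of -1.27. Among those lower, Pln was above background on 0 of 3 arrays in null cultures with inhibitor, and Slc8a1 and Xirp1 on 2 of 3. All of them were above it on 3 of 3 in heterozygous cultures, and needed that signal to enter the test. With detection required in both channels, 21 of 25 were lower and 2 higher. With marked backgrounds kept 17 were lower and 1 higher. Myl3 (-2.70 ± 0.07), Myh7 (-2.63 ± 0.36) and Myh6 (-2.32 ± 0.10), a myosin light chain gene and the cardiac heavy chain genes, fell furthest. The connexin genes Gja5 (1.28 ± 0.27) and Gja1 (0.66 ± 0.19) rose. Of 11 tested smooth muscle genes, 4 fell and 4 rose (36.4% each), with a median of -0.003, near the shares of all genes. Cald1 (-1.56 ± 0.16), Tpm1 (-1.48 ± 0.16) and Des (-1.22 ± 0.31) fell, and Actg2 (2.49 ± 0.29), Cnn1 (1.02 ± 0.25) and Tagln (0.59 ± 0.03) rose.

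**Figure D5:**
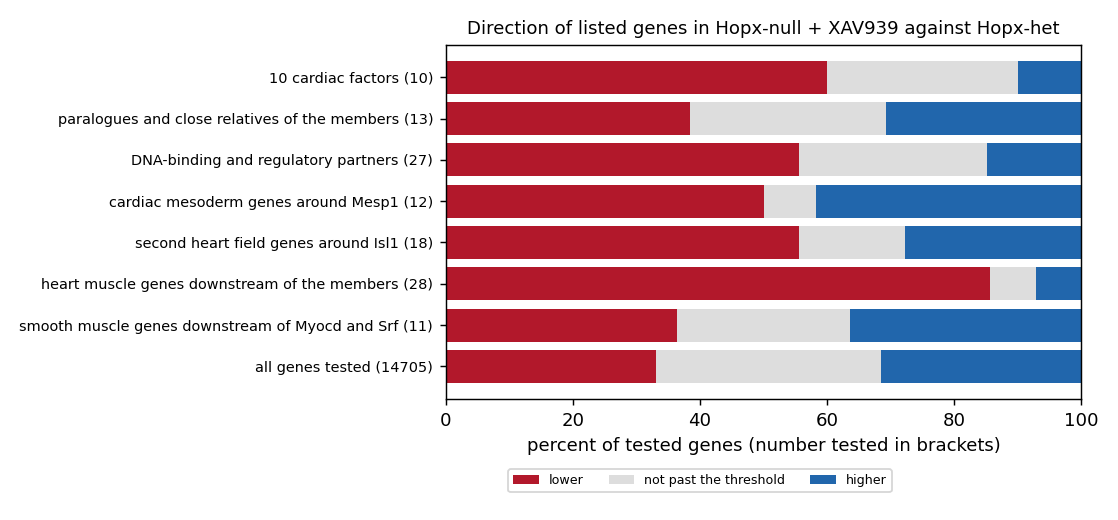
Percent of tested genes called lower (red), not past the threshold (grey) and higher (blue) in null plus XAV939 against het, for the 10 factors, the 6 related lists and all 14705 tested genes. Of the groups plotted, the heart muscle list has the largest lower share, with 24 of 28 genes, and the smooth muscle list has 4 each way.

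Among the 105 tested genes of these lists, the ones nearest to Isl1 over the 3 arrays were Tbx1, Gata4 and Tbx20, with root mean square differences of 0.17, 0.22 and 0.22 in log2 ratio. Those nearest to Nkx2-5 were Nkx2-6, the sodium-calcium exchanger gene Slc8a1 and the natriuretic peptide gene Nppb, at 0.14, 0.17 and 0.18. Likeness over 3 arrays of 1 comparison mostly reflects a similar mean.

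Markers of several cell types differed between the RNAs too, in both directions. Their counts are to be read against the 33% of all genes called lower and 31.5% called higher. All 9 cardiomyocyte markers fell, each of which is also counted in the heart muscle list above. Their summed signal was 68924 to 80442 in null cultures with inhibitor, against 257326 to 285630 in heterozygous cultures (log2 ratios of the sums -1.94, -1.68 and -1.96). All 8 endoderm markers fell too, with sums of 4950 to 10417 against 137060 to 156342. Of 7 pluripotency markers 5 rose and 1 fell (34979 to 41838 against 22708 to 26271), with Nanog counted as risen by its brightest probe although 1 of its 3 probes was called lower, and of 4 tested neural markers 3 rose (10077 to 11236 against 1611 to 2017). Smooth muscle markers summed to 89682 to 100419 against 93499 to 94395 (2 rose and 1 fell of 3 tested), endothelial ones to 6559 to 7953 against 4027 to 4781 (3 rose and 1 fell of 5), blood ones to 59383 to 83122 against 40251 to 55962 (3 of 4 rose) and fibroblast or feeder ones to 17269 to 27071 against 30472 to 43637 (1 rose and 3 fell of 6). The log2 ratios of the sums were uneven between arrays for blood (0.86, 0.09 and 0.61) and for fibroblast or feeder markers (-0.17, -0.96 and -1.25). Every tested marker was well above background in both RNAs on all 3 arrays, the cardiomyocyte markers included. The part of these shifts in the ratios of the 10 factors was not tested.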

How the data were processed

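RNA of both cultures was hybridised together on 3 two-colour arrays (44397 spots, 43020 not controls). The deposited median spot and background values are scanner intensity, extracted by the authors with Agilent Feature Extraction 11.5.1.1 per the file headers, or 8.5.1.1 per the submitters' processing notes, with probes designed on mm9. Their log ratio column is in log10 units (processed red signal divided by green), per the file headers. The authors' value table was taken to hold log2 ratios. Its slopes on the scanner log2 ratios were 0.688, 0.799 and -0.797 (r 0.885, 0.945 and -0.94), which do not settle the base of the logarithm. The columns have medians of 0.086, -0.08 and 0.053, and the table's centring and normalization are not stated there. Other columns used are the deposited marks of 0 or 1 per spot, per the file headers.

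Probes were named through unversioned RefSeq accessions (28025 with 1 symbol, 11404 unnamed). In limma 3.58.1 (R 4.3.3), local backgrounds marked as outliers (0.601% to 3.08% of spots, up to 65528) were set to the median of unmarked backgrounds in their channel, intensities were corrected by normexp (offset 50) and normalised by loess, spots of a probe were averaged and replicate 3 was turned. Testing required a probe to be well above background on every array in 1 channel or both, and a gene was its brightest tested probe. Signals per RNA come from the same values after Aquantile scaling. Each array is its own pair; the moderated test had 8.66 degrees of freedom, and the number of arrays limits the precision. Alternatives covered background, normalization, filter, probe summary, slide, source of values, direction of replicate 3 and leaving out each replicate. The members and lists were chosen with earlier results of these data known. From each related list the 3 genes furthest below and above 0 among those called with 1 sign on all arrays are named, except 1 gene that is not reported here.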

Additional observations from a re-analysis of the deposited data

How the results depend on the processing

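Isl1, Myocd, Irx4, Hand1 and Nkx2-5 stayed lower and past the threshold in all 13 settings other than replicate 3 used as labelled. Each of these genes has a single probe, so the settings for filter and probe summary could not change its ratio. Genes called higher and lower numbered 2664 and 2252 with marked local backgrounds kept and 3035 and 2019 with median centring (60.1% of calls higher against 48.9%), and 0 of the 10 factors was then higher with marked backgrounds kept, as when detection was required in both channels, where Mesp1 was not tested. With replicate 3 as labelled, limma called 0 genes higher and 0 lower, with 40 at an unadjusted p below 0.05, and 0 of the 10 factors in either direction. Leaving out each replicate in turn gave 3505 to 5278 genes higher and 3714 to 5342 lower, and 1 and 6 of the factors each time. The sign turned for the uncalled Mef2 genes. Mef2a lay at 0.029 with Feature Extraction's log ratio, 0.081 with median centring, 0.0062 with slide as a term, 0.11 with replicate 3 as labelled and -0.185 to 0.036 on leaving out each replicate. Mef2d lay at -0.24 with the mean over probes, -0.0218 with slide as a term, -0.0217 in the authors' table and -0.0567 to 0.0745 on leaving out each replicate. Mef2c lay at -0.046 in the authors' table. The causes were not tested. A random slide block could not be fitted to 3 arrays, so slide entered as a fixed term, a choice made after seeing the data. The test reported is itself paired, since every ratio sets both RNAs of 1 array against each other. Low signal limits Mesp1, whose heterozygous signal was near background.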
